A study of Caenorhabditis elegans with 10 samples.

Results

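The genes described here encode the subunits of the 26S proteasome. They were taken as every protein-coding gene whose symbol is pas-, pbs-, rpt- or rpn- followed by a number, with or without a suffix. The rule uses no measured value, and it found 33 of the 46756 genes in the count table. Of these, 14 encode the core particle (7 pas and 7 pbs genes) and 19 encode the cap (6 rpt and 13 rpn genes). All 33 passed edgeR's filterByExpr filter on low counts and are among the 16817 genes tested.

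The proteasome is the barrel-shaped protease that breaks down proteins carrying ubiquitin chains. Its core particle is a stack of rings, with alpha subunits (pas genes) as the outer rings that gate entry and beta subunits (pbs genes) as the inner rings that hold the active sites. The cap, or 19S regulatory particle, binds the chains, removes them and unfolds the substrate. Its base holds a ring of ATPases (rpt genes) and several rpn subunits, and its lid is built from the other rpn subunits. Since subunits are used in fixed proportions, their genes are often expressed together. In C. elegans the transcription factor SKN-1A raises them when proteasome capacity is short.

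RNA-seq was performed on whole early L1 larvae of 2 strains, both hermaphrodite, with adults grown at 20°C and embryos hatched overnight without food. pbrm-1 encodes the bromodomain subunit that defines the PBAF form of the SWI/SNF chromatin remodeling complex. pbrm-1(TS-KO), strain RA678, combines the allele pbrm-1(rd31), a pbrm-1::GFP(flox) fusion, with the insertion rdIs74, in which the hnd-1 promoter drives GFP-nanobody::ZIF-1 and Cre. pbrm-1(control), strain RA685, combines the same allele with rdIs79, in which that promoter drives ZIF-1 alone. Both strains therefore carry the GFP-tagged, loxP-flanked pbrm-1 allele, the hnd-1 promoter, ZIF-1 and an unc-119 rescue, and they differ in the GFP nanobody and Cre. The hnd-1 promoter is active in embryonic mesoderm, chiefly the body wall muscles and the somatic gonadal precursors, so most cells of the larvae kept PBRM-1. The study's text adds that a few pbrm-1(TS-KO) larvae lacked PBRM-1::GFP throughout. ZIF-1 is itself the adaptor of a ubiquitin ligase and delivers PBRM-1::GFP to the proteasome only when it is fused to the nanobody. The 5 libraries of each strain carry replicate numbers 1, 4, 5, 6 and 7. The study's text places the replicates on different days, with both strains reared in parallel. It does not tie the numbers to days, and libraries with the same number were taken as reared together.

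Total counts per library ran from 35922561 to 46553938 in pbrm-1(TS-KO) (median 39907214) and from 36354418 to 45126931 in pbrm-1(control) (median 42973654). pbrm-1 itself, counted over the whole gene although Cre removes its last exons only, averaged 247 ± 11.5 CPM in pbrm-1(TS-KO) and 263 ± 23.9 CPM in pbrm-1(control) (SD, n = 5 each), and its log2 fold change was -0.089 (adjusted p = 0.433 in edgeR). In the study's own exon-level test, most of those last exons were significantly lower in pbrm-1(TS-KO). CPM are the usual depth-scaled counts, after TMM normalization. The 5 body wall muscle markers summed to between 16700 and 20200 CPM in pbrm-1(TS-KO) and between 18900 and 20000 CPM in pbrm-1(control), and mup-2 and lev-11, 2 of the 5, passed the test with lower levels in pbrm-1(TS-KO). The 3 germ cell markers summed to between 93.9 and 110 CPM in pbrm-1(TS-KO) and between 79 and 94.3 CPM in pbrm-1(control). They did not all go one way, with log2 fold changes of 0.28 (glh-1), 0.26 (pgl-1) and -0.53 (nos-2), and glh-1 alone passed the test. Of 33 sperm genes only 1 passed the filter, and the oocyte provisioning genes summed to at most 4.16 CPM in pbrm-1(TS-KO) and 3.67 CPM in pbrm-1(control). The epidermal markers summed to between 3.52 and 6.02 CPM in pbrm-1(TS-KO) and between 3.76 and 69.8 CPM in pbrm-1(control), where replicate 5 had 67.5 CPM of the collagen gene dpy-7. The intestinal markers summed to between 120 and 127 CPM in pbrm-1(TS-KO) and between 120 and 142 CPM in pbrm-1(control). Among them elt-2 had a log2 fold change of 0.41 and ges-1 of -0.24. The neuronal markers summed to between 2060 and 2230 CPM in pbrm-1(TS-KO) and between 1720 and 2130 CPM in pbrm-1(control). Most of that sum was egl-3, at 1880 CPM in pbrm-1(TS-KO) and 1670 CPM in pbrm-1(control) on average. The log2 fold changes were 0.17 (egl-3), 0.061 (unc-31), 0.0079 (sng-1) and -0.034 (rab-3). No intestinal or neuronal marker passed the test. The part of these differences in the values below was not tested. Since whole larvae were sequenced, fewer cells of a type and less RNA per cell cannot be told apart.

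Proteasome subunit genes were expressed at similar levels to one another. To compare genes, counts were divided by exon length and scaled to a common total (TPM). The members took 0.186% ± 0.0047 of all counts in pbrm-1(TS-KO) and 0.18% ± 0.0074 in pbrm-1(control) (SD, n = 5 each). Their mean TPM over the 10 libraries lay between 32.2 and 122 for every member but rpn-6.2, which was at 4.48. The core genes summed to 975 ± 20.7 TPM in pbrm-1(TS-KO) and 943 ± 40.5 TPM in pbrm-1(control), and the cap genes to 958 ± 31.7 TPM in pbrm-1(TS-KO) and 910 ± 28.5 TPM in pbrm-1(control). The ranges of the strains overlapped for both. Per gene the core lay higher, with a median of 61.6 TPM over 14 genes against 50.9 TPM over the 19 cap genes. Of the 10 members with the highest level, 7 were core genes, and of the 10 with the lowest level, 8 were cap genes.

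**Figure D1:**
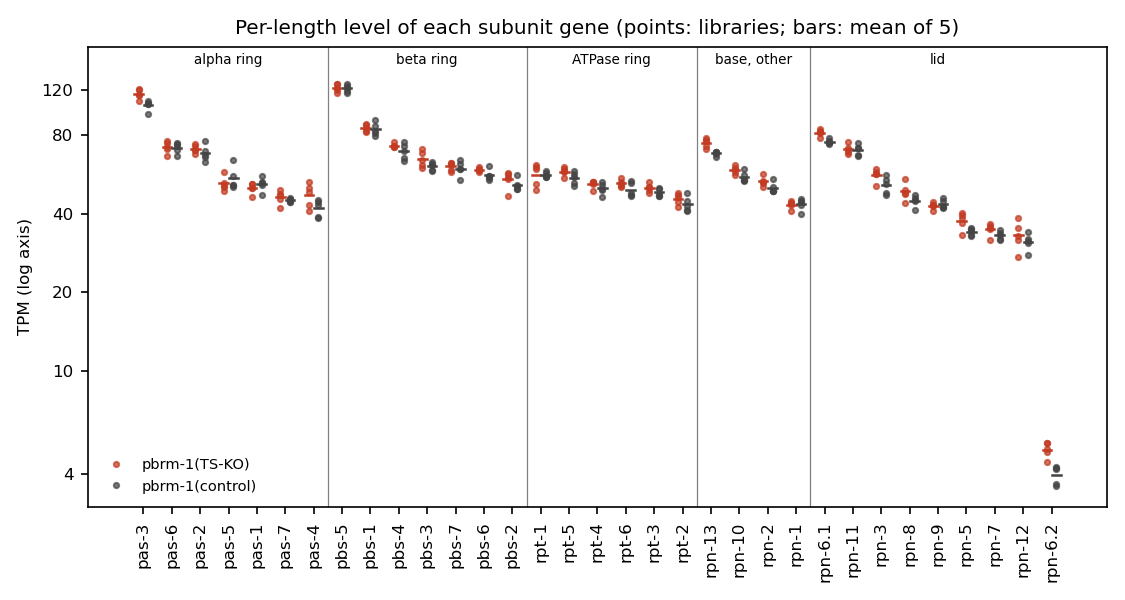
Per-length level of the 33 proteasome subunit genes (TPM, log axis), grouped by ring or subcomplex and ordered by mean level within each. Red points are the 5 pbrm-1(TS-KO) libraries, grey points the 5 pbrm-1(control) libraries, and bars are means; pbs-5 is highest at 122 TPM over all libraries, and rpn-6.2 stands below all others at 4.48 TPM.

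The order of the subunits was resolved only in part. Of 32 neighbouring pairs in the order of mean TPM, 29 had ranges over the 10 libraries that overlapped. The breaks fell between pas-3 (110 TPM) and pbs-1 (85.1 TPM), between rpn-9 (43.3 TPM) and rpn-5 (35.9 TPM), and between rpn-12 (32.2 TPM) and rpn-6.2. pbs-5, the beta subunit with the chymotrypsin-like active site, had the highest level of all members. Its libraries spanned 117 to 126 TPM in pbrm-1(TS-KO) and 116 to 126 TPM in pbrm-1(control). The other catalytic beta genes were at 85.1 TPM (pbs-1, the caspase-like site) and 53 TPM (pbs-2, the trypsin-like site), so the catalytic genes spanned the whole range of the beta ring (53 to 122 TPM). In the alpha ring pas-3, whose counterpart in yeast contributes to the closed gate, was at 110 TPM and pas-4 was lowest at 44.6 TPM. The ATPase ring was the most even group, from 44.7 TPM (rpt-2) to 56.6 TPM (rpt-1), a 1.27-fold range against 2.47-fold in the alpha ring, 2.3-fold in the beta ring and 1.65-fold in the rest of the base. The lid genes other than rpn-6.2 reached from 32.2 TPM (rpn-12) to 78.9 TPM (rpn-6.1). The levels depend on the annotated transcript ends, and with coding length in place of exon length the members kept nearly the same order (Spearman rho 0.974 across the 33 genes, which are not independent).

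rpn-6.1 and rpn-6.2 are the members that share a number. Both stand for the lid subunit Rpn6, which clamps the lid to the core, and rpn-6.1 is known in C. elegans for raising proteasome activity when its level is increased. Both lie on chromosome III, rpn-6.1 at 6959110 to 6962001 and rpn-6.2 at 8999817 to 9001999, on the minus strand of the WBcel235 annotation. rpn-6.1 was the highest cap gene at 78.9 TPM, and rpn-6.2 was the lowest member. Per length, rpn-6.2 was at 6.05% ± 0.315 of rpn-6.1 in pbrm-1(TS-KO) and at 5.28% ± 0.453 in pbrm-1(control) (SD, n = 5 each). The ranges of that share, 5.71 to 6.4% in pbrm-1(TS-KO) and 4.73 to 5.73% in pbrm-1(control), met only at their ends. The counts use uniquely mapped reads, and whether reads of rpn-6.1 were placed on rpn-6.2 or dropped between the paralogs was not tested, so the level of rpn-6.2 is uncertain.

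Between the strains, no proteasome subunit gene passed the threshold. With edgeR's quasi-likelihood test and Benjamini-Hochberg adjustment over all genes tested, 0 of 33 members had an adjusted p of at most 0.05, against 1299 of 16817 genes (7.72%), made up of 3.44% with higher and 4.28% with lower levels in pbrm-1(TS-KO). At an unadjusted p under 0.05 there were 5 members, rpn-3, rpn-5, rpn-6.1, rpn-6.2 and rpn-13, all in the cap and all with positive log2 fold changes, where 11.2% of all genes had positive and 12.9% negative ones. DESeq2 called 1 member (rpn-6.2), and limma-voom with sample quality weights called 4 (pas-4, rpn-3, rpn-5 and rpn-6.2). Both methods also called more genes outside the members, with 1955 over all genes in DESeq2 and 2899 of 16817 in limma-voom. With neither method was the share of members called above that of all genes. No member was called in any of the 15 edgeR fits that left out a library or a pair.

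The log2 fold changes of the members, pbrm-1(TS-KO) over pbrm-1(control), were small and mostly positive. Their median was 0.041 and their range -0.092 to 0.29, beside a median of 0.0005 over all genes tested. A positive value was found for 24 of 33 members (72.7%), against 50.1% of all genes. The genes covary across libraries, so these are not 33 independent signs. The 95% interval lay within 1.25-fold of no difference for 32 of 33 members (97%), against 40.2% of all genes. This limit (0.322 on the log2 scale) was set after the values were seen, and the count depends on it. The interval of pas-4 reached up to 0.292 and that of pas-5 down to -0.268. The members are abundant, with a median standard error of 0.055 on the log2 scale against 0.109 over all genes, which makes their intervals narrow. The exception was rpn-6.2. For the others a difference beyond 1.25-fold in RNA of whole larvae lies outside the interval. PBRM-1 was removed chiefly in the mesoderm, so the intervals do not bound a difference confined to those cells. These intervals are not adjusted for the number of genes, and those of rpn-3, rpn-5, rpn-6.1 and rpn-13 lay wholly above 0, while no member passed after adjustment.

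**Figure D2:**
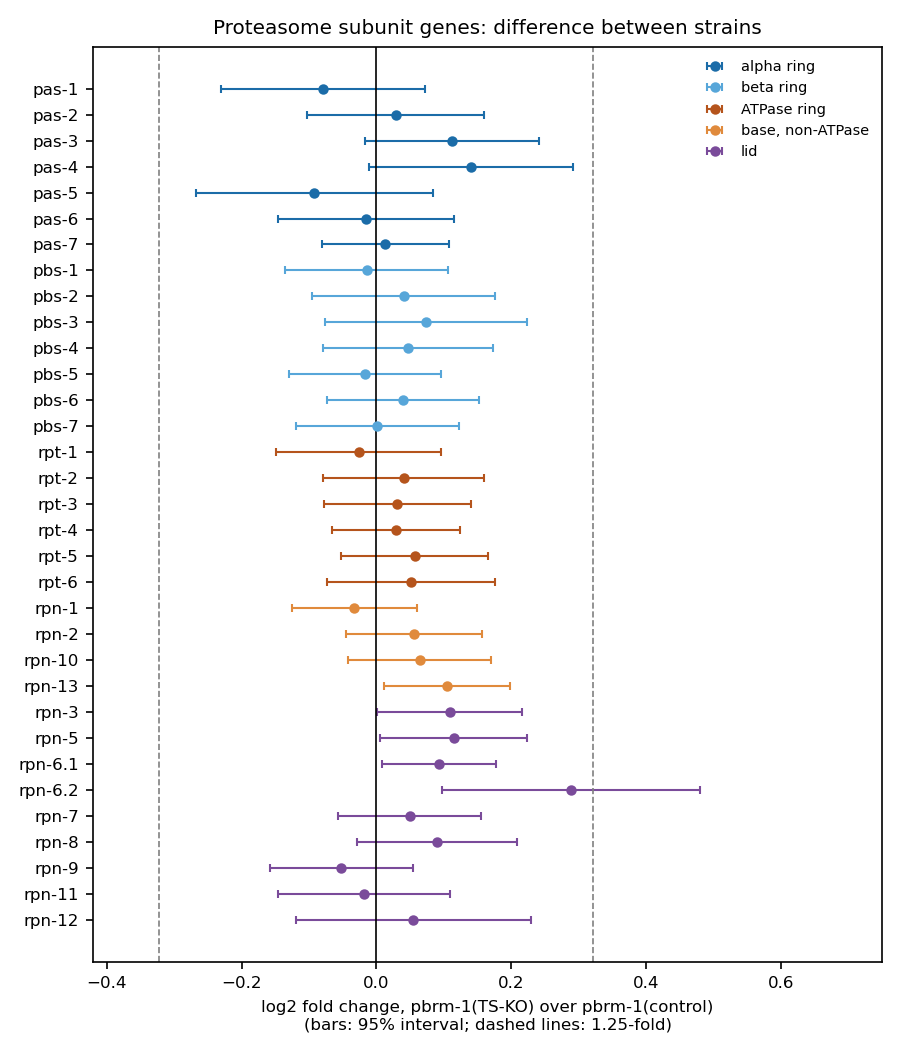
Log2 fold change of each proteasome subunit gene, pbrm-1(TS-KO) over pbrm-1(control), with its 95% interval from edgeR (n = 5 libraries each), colored by ring or subcomplex. Dashed lines mark 1.25-fold; the intervals of all members but rpn-6.2 lie between them, and those of 5 cap genes lie wholly above 0.

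In the alpha ring the median log2 fold change was 0.013, with 4 of 7 genes above 0. pas-4 had the largest positive value in the core. Its level was 32, 29.5, 32.6, 35.1 and 28.2 CPM in pbrm-1(TS-KO) replicates 1, 4, 5, 6 and 7, against 28.4, 26.8, 30.2, 30.7 and 26.7 CPM in pbrm-1(control). The pbrm-1(TS-KO) library was the higher one in each of the 5 same-numbered pairs, but the strains overlapped because replicates 4 and 7 were low in both. The log2 fold change was 0.14 ± 0.069 (SE), with an adjusted p of 0.243 in edgeR and of 0.0385 in limma-voom. pas-5 had the most negative value in the core. It was at 31.4, 34.8, 32.1, 37.3 and 33.7 CPM in pbrm-1(TS-KO), against 32.1, 34.5, 36.1, 43.1 and 34.7 CPM in pbrm-1(control). The strains overlapped, and control replicate 6 stood above all others. Its log2 fold change was -0.092 ± 0.08 (SE, adjusted p = 0.522 in edgeR). pas-3 was the other alpha gene with a positive difference in all 5 pairs, at 78 ± 4.94 CPM in pbrm-1(TS-KO) and 72.2 ± 4.59 CPM in pbrm-1(control), with an estimate of 0.11 on the log2 scale (adjusted p = 0.276 in edgeR). The remaining alpha genes had log2 fold changes of -0.079 (pas-1), 0.028 (pas-2), -0.016 (pas-6) and 0.013 (pas-7).

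The beta ring, which does the cutting, gave a narrower spread of fold changes than the alpha ring. Its log2 fold changes had a median of 0.039 and a range of -0.017 (pbs-5) to 0.074 (pbs-3). pbs-5 was at 94.8, 104, 90.8, 96.7 and 104 CPM in pbrm-1(TS-KO), against 91.5, 98.5, 99.5, 104 and 101 CPM in pbrm-1(control). The strains overlapped over nearly their whole range. The other catalytic genes had log2 fold changes of -0.015 (pbs-1) and 0.041 (pbs-2), and the non-catalytic genes of 0.046 (pbs-4), 0.039 (pbs-6) and 0.0011 (pbs-7). For pbs-5 the interval reached from -0.13 to 0.096, and for pbs-1 from -0.14 to 0.11. None of the 7 beta genes kept one sign in all 5 pairs.

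The ATPase ring, which unfolds the substrate, had a median log2 fold change of 0.036. The values were -0.026 (rpt-1), 0.041 (rpt-2), 0.031 (rpt-3), 0.029 (rpt-4), 0.057 (rpt-5) and 0.052 (rpt-6). rpt-1 was the only one of the 6 below 0 with edgeR and was above 0 (0.014) with limma-voom. In its libraries it was at 67.1, 61.1, 67.4, 69.9 and 58.1 CPM in pbrm-1(TS-KO), against 64.4, 65.9, 63.9, 69 and 66.2 CPM in pbrm-1(control). The low values of pbrm-1(TS-KO) replicates 4 and 7 fell below every control library, and the other replicates of that strain did not.

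In the base outside the ATPases, the median log2 fold change was 0.06. rpn-13, a receptor that binds ubiquitin chains, was at 86.9, 88, 79.7, 86.5 and 82.7 CPM in pbrm-1(TS-KO), against 75.6, 77.8, 78.2, 81.2 and 81.3 CPM in pbrm-1(control). In 4 pbrm-1(TS-KO) libraries it was above all control libraries, and the strains overlapped through replicate 5. Its log2 fold change was 0.1 ± 0.042 (SE, adjusted p = 0.16 in edgeR). rpn-10, the other dedicated ubiquitin receptor and in C. elegans a gene with a role in sex determination of the hermaphrodite germline, was at 57.6 ± 2.5 CPM in pbrm-1(TS-KO) and 55.1 ± 2.53 CPM in pbrm-1(control), and the log2 fold change was 0.064. The large scaffold genes had log2 fold changes of -0.033 (rpn-1) and 0.056 (rpn-2).

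The lid had the highest median log2 fold change of the groups, 0.09, and held 4 of the 5 members with an unadjusted p under 0.05. rpn-6.2 had the largest value of all members. It was at 5.81, 5.84, 6.02, 6.15 and 5.4 CPM in pbrm-1(TS-KO), against 4.23, 5.18, 4.95, 5.17 and 4.4 CPM in pbrm-1(control). The strains did not overlap, which held in the higher direction for 4.35% of all genes and in the lower for 4.91%. The log2 fold change was 0.29 ± 0.087 (SE, interval 0.098 to 0.48), with an unadjusted p of 0.0066 and an adjusted p of 0.0675 in edgeR, 0.0347 in DESeq2 and 0.0219 in limma-voom. Over all alternatives its adjusted p ranged from 0.0219 to 0.183. These values rest on 223 to 268 counts per pbrm-1(TS-KO) library and 184 to 220 per pbrm-1(control) library, the fewest of any member.

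rpn-6.1 was the only other member whose strains did not overlap. It was at 101, 108, 99.5, 103 and 99.8 CPM in pbrm-1(TS-KO), against 91.7, 97, 97, 95.4 and 98.2 CPM in pbrm-1(control). The gap was narrow, with the lowest pbrm-1(TS-KO) library just above the highest control library. Its log2 fold change was 0.093 ± 0.039 (SE, adjusted p = 0.172 in edgeR). The minor paralog thus had the larger fold change, and the difference between the fold changes was not tested.

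**Figure D3:**
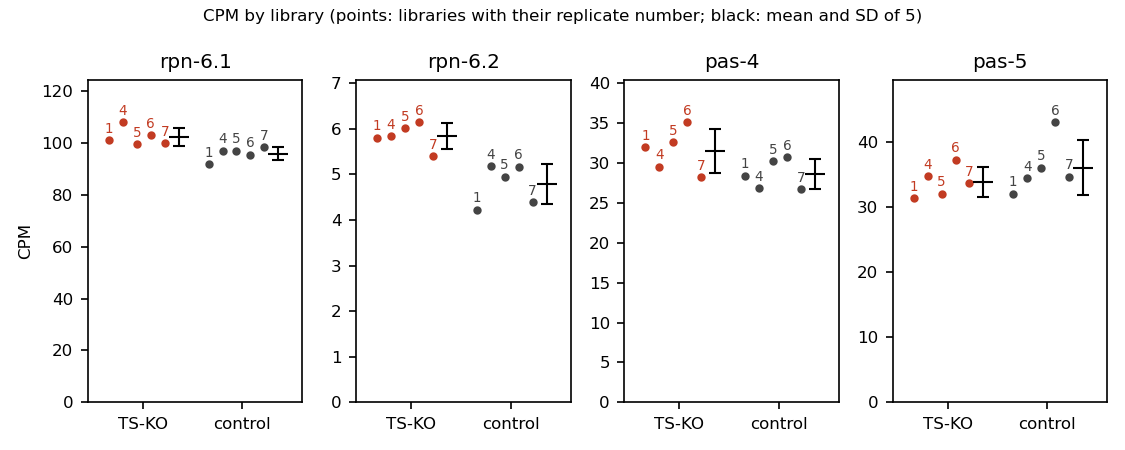
CPM in each library (points, with the replicate number above) for the paralogs rpn-6.1 and rpn-6.2 and for the core genes with the largest positive (pas-4) and negative (pas-5) log2 fold change; black marks are the mean and SD of 5 libraries, pbrm-1(TS-KO) left and pbrm-1(control) right. The strains are separate for rpn-6.1 and rpn-6.2 and overlap for pas-4 and pas-5, where control replicate 6 of pas-5 is at 43.1 CPM.

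The scaffold genes rpn-3 and rpn-5 also had positive values. rpn-3 was at 80.6, 81.9, 81.1, 79.7 and 73.6 CPM in pbrm-1(TS-KO), against 77.9, 69, 75.5, 75.7 and 70.1 CPM in pbrm-1(control), and the log2 fold change was 0.11 ± 0.049 (SE, adjusted p = 0.202 in edgeR and 0.0399 in limma-voom). rpn-5 was at 49.3, 48.9, 49.5, 51.9 and 44 CPM in pbrm-1(TS-KO), against 44.8, 44.2, 44.5, 47 and 44.6 CPM in pbrm-1(control), and the log2 fold change was 0.11 ± 0.05 (SE, adjusted p = 0.185 in edgeR and 0.0387 in limma-voom). For both genes replicates 1, 4, 5 and 6 of pbrm-1(TS-KO) were above all control libraries, and replicate 7 was within or below them. rpn-9 had the most negative value of the cap, at 40.4, 44.3, 43.2, 42.8 and 44.3 CPM in pbrm-1(TS-KO), against 41.9, 44.2, 44.9, 48 and 44.1 CPM in pbrm-1(control), and the log2 fold change was -0.052 ± 0.048 (SE, adjusted p = 0.549 in edgeR). rpn-11, the deubiquitinase that removes the chain, had a log2 fold change of -0.018, and rpn-8, its structural partner, of 0.09. The values of rpn-7 and rpn-12, scaffold subunits, were 0.05 and 0.054.

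Some of these counts may include reads of neighbours. The exons of 11 members share bases with another annotated gene, and whether the counting used strand is not given in the sources used here. The largest share was in rpn-7, where 394 bases (20.7% of its exons) are also exons of nemt-1 on the other strand. It was 10.6% in rpn-9, 9.11% in pbs-4, 7.97% in pbs-7 and 7.05% in rpt-4, and under 3% in the rest (at most 2.83%, in pbs-3). pas-4, rpn-3, rpn-5, rpn-6.1, rpn-6.2 and rpn-13 have no such overlap.

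The difference between the strains varied between same-numbered pairs. Each pair holds a single library of each strain, so variation between days and between libraries cannot be told apart. Within same-numbered pairs the median difference of the 33 members, pbrm-1(TS-KO) minus pbrm-1(control) on the log2 CPM scale, was 0.071 for replicate 1, 0.14 for replicate 4, 0.004 for replicate 5, -0.037 for replicate 6 and 0.029 for replicate 7. The number of members with a positive difference was 29, 31, 17, 12 and 22 of 33. Over all genes tested, the share with a positive difference was 47.3% in replicate 5 and between 49.9 and 51% in the other pairs. A positive difference in all 5 pairs was found for 7 members (pas-3, pas-4, rpn-3, rpn-6.1, rpn-6.2, rpn-8 and rpn-13), or 5 of the 19 cap genes and 2 of the 14 core genes, against 12.9% of all genes. A negative difference in all 5 pairs was found for 0 members, against 13.8% of all genes.

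Core and cap were then compared. The core had a median log2 fold change of 0.021 and the cap of 0.054, or 0.053 without rpn-6.2. The core median was below the cap median in 3 of 5 pairs, by 0.071 on the log2 scale in replicate 4, 0.072 in replicate 5 and 0.099 in replicate 6, and above it by 0.0033 in replicate 1 and 0.015 in replicate 7. In replicate 6, 3 of 14 core genes and 9 of 19 cap genes were above 0, and in replicate 4, 13 of 14 and 18 of 19. Per library, the core median minus the cap median of deviations from each gene's mean was -0.02 ± 0.035 in pbrm-1(TS-KO), between -0.045 and 0.04, and 0.02 ± 0.031 in pbrm-1(control), between -0.03 and 0.055 (SD, n = 5 each). The strains overlapped, so a difference between core and cap was not resolved. Core transcripts are also shorter, with a median exon length of 880.5 bases against 1493 in the cap. Over all tested genes, the median difference in replicate 6 was -0.034 for exon lengths up to 1100 bases and 0.027 for lengths over 2000 bases. The short genes had the higher median in replicates 1, 4, 5 and 7, for example -0.0051 against -0.064 for the long genes in replicate 5, and also in the fit over all libraries, with median log2 fold changes of 0.0036 for the short and -0.012 for the long genes. The part of length in the contrast of core and cap was not tested.

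**Figure D4:**
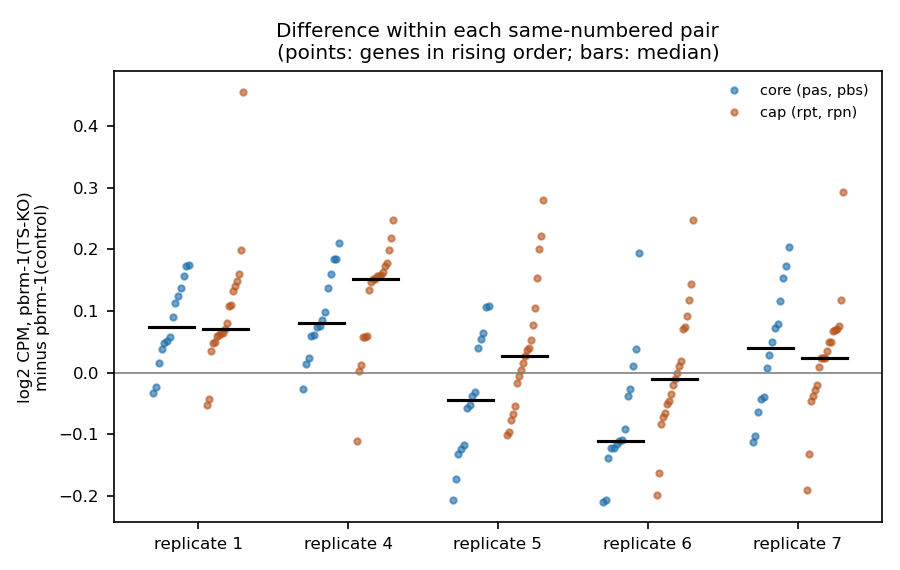
Difference of log2 CPM, pbrm-1(TS-KO) minus pbrm-1(control), within each same-numbered pair of libraries, with 1 point for each of the 14 core genes (blue) and 19 cap genes (orange) in rising order and the median as a black bar. The medians are above 0 in replicates 1, 4 and 7 for both, and the core median is -0.11 in replicate 6 while the cap median is -0.011.

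In some libraries most members deviated the same way. In pbrm-1(TS-KO) replicate 4, 12 of 14 core and 17 of 19 cap genes were above their own mean over the 10 libraries. In pbrm-1(control) replicate 6, 13 core and 14 cap genes were above it, and in pbrm-1(control) replicate 1, 0 core and 2 cap genes. Without control replicate 6 the median log2 fold change of the members was 0.077 (core 0.057, cap 0.085), with 28 of 33 above 0. Without the replicate 4 pair it was 0.02 (core -0.0026, cap 0.022), with 22 of 33 above 0. Over all fits without a library or pair, the core median lay between -0.0026 and 0.057 and the cap median between 0.022 and 0.085.

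**Figure D5:**
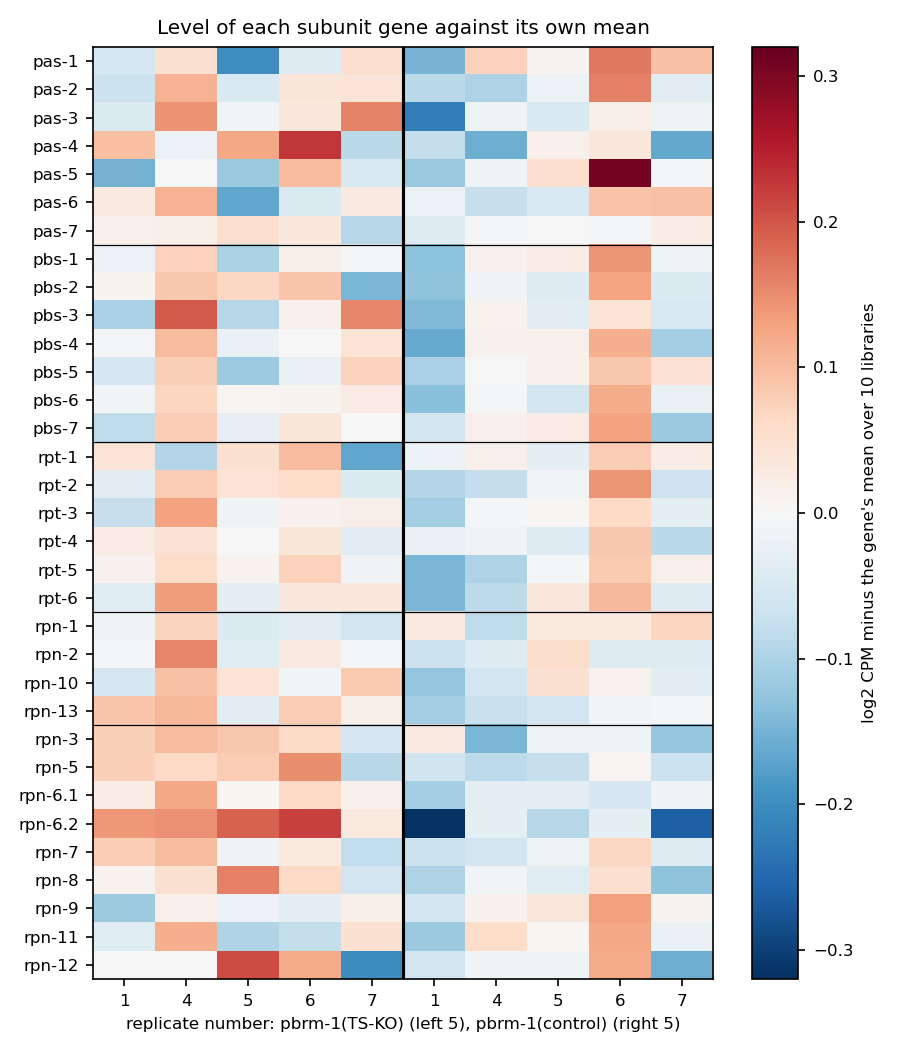
Level of each subunit gene in each library as log2 CPM minus the gene's mean over the 10 libraries (red above, blue below), with replicates 1, 4, 5, 6 and 7 of pbrm-1(TS-KO) on the left and of pbrm-1(control) on the right; horizontal lines separate the alpha ring, beta ring, ATPase ring, rest of the base and lid. Whole columns share a color, as in pbrm-1(TS-KO) replicate 4 (29 of 33 genes above their mean) and pbrm-1(control) replicate 1 (2 of 33 above).

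Across the 10 libraries the members varied together. The median Pearson correlation of log2 CPM over the 528 gene pairs was 0.447, against 0.0023 over pairs of the 8837 tested genes within the members' range of CPM. It was 0.562 within the core, 0.669 within the beta ring, 0.447 within the cap and 0.412 between core and cap. The points of each correlation are the same 10 libraries and share their day, strain and depth. Close pairs were found within a ring, as for rpt-3 and rpt-6 (r of 0.911), and between rings, as for pas-1 and pbs-5 (0.926), pas-2 and rpt-6 (0.91) and pas-3 and pbs-3 (0.895). rpt-6 was the member most like the others, with a median r of 0.621. rpt-1 stood apart from the other members, with a median r of -0.0051 over all of them. Its r was positive with 16 of the 32 others, lowest with pbs-3 (-0.565) and highest with pas-7 (0.703). The spread within a strain was small. The median coefficient of variation of the members was 4.96% in pbrm-1(TS-KO) and 5.54% in pbrm-1(control), against 8.29% in pbrm-1(TS-KO) and 7.99% in pbrm-1(control) for the tested genes of that range.

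The genes of the ubiquitin-proteasome pathway outside the particle were taken from a list of 32, of which 31 were matched and tested. At an adjusted p of at most 0.05, pbrm-1(TS-KO) had 1 of them higher and 2 lower (9.68%, against 7.72% of all genes), and the median log2 fold change was 0.016. ubql-1, the ubiquilin that shuttles ubiquitylated proteins to the proteasome, was at 159, 160, 156, 157 and 148 CPM in pbrm-1(TS-KO), against 145, 138, 142, 134 and 137 CPM in pbrm-1(control), and the log2 fold change was 0.17 ± 0.038 (SE, adjusted p = 0.0237 in edgeR). Its strains did not overlap. cdc-48.1, the segregase that pulls ubiquitylated proteins out of complexes and membranes, was at 123, 120, 120, 123 and 115 CPM in pbrm-1(TS-KO), against 142, 134, 134, 135 and 142 CPM in pbrm-1(control), and the log2 fold change was -0.19 ± 0.038 (SE, adjusted p = 0.012 in edgeR). elb-1, which encodes elongin B and belongs with ZIF-1 to a CUL-2 ubiquitin ligase, was at 14.6, 15.5, 15.1, 15.3 and 14 CPM in pbrm-1(TS-KO), against 17.1, 17.5, 17, 17.4 and 16 CPM in pbrm-1(control), and the log2 fold change was -0.19 ± 0.052 (SE, adjusted p = 0.0477 in edgeR). Neither of these overlapped between the strains. Over all genes tested, the strains did not overlap for 4.35% in the higher and 4.91% in the lower direction. The genes were named because they were called on these same values, so their lack of overlap is no separate support. The call of elb-1 was lost without any single library or pair (adjusted p = 0.0544 to 0.155 in edgeR). That of ubql-1 was lost without pbrm-1(TS-KO) replicate 1, 4 or 6, without pbrm-1(control) replicate 4 or 6, and without pairs 4, 5 and 6 (adjusted p up to 0.118), and that of cdc-48.1 only without pairs 1, 5, 6 and 7 (up to 0.069). Without the filter on low counts cdc-48.1 alone kept its call.

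The genes that raise proteasome expression in C. elegans did not pass the threshold. skn-1, whose A form is the activator, was at 297 ± 21.9 CPM in pbrm-1(TS-KO) and 275 ± 18.9 CPM in pbrm-1(control), and the log2 fold change was 0.11 (adjusted p = 0.309 in edgeR). For ddi-1, the protease that cleaves SKN-1A, the estimate on the log2 scale was 0.042 (adjusted p = 0.763), and for png-1, the glycanase that edits it, -0.12 (adjusted p = 0.4). The counts per gene do not separate the forms of skn-1. zif-1, which both transgenes carry, was at 7.95, 9, 9.29, 10.1 and 7.91 CPM in pbrm-1(TS-KO), against 7.1, 7.39, 9.47, 11.2 and 6.82 CPM in pbrm-1(control), and the strains overlapped (log2 fold change 0.076, adjusted p = 0.781 in edgeR). As a second list of stable complex subunits, the 76 cytosolic ribosomal protein genes had a median log2 fold change of -0.1, with 4 above 0 and 72 below. Of these genes 2 were called lower (2.63%, against 4.28% of all genes). The positive median of the proteasome genes was thus not shared by them. The lists were not matched, with median exon lengths of 532 bases for the ribosomal genes and 1235 for the members.

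By chromosome, the 33 members were spread over the autosomes, with 10 on chromosome I, 7 on II, 8 on III, 3 on IV and 5 on V. The X chromosome, which holds 14.9% of the genes tested, has 0. Of the 14 core genes 7 are on chromosome I, and of the 19 cap genes 7 are on chromosome III.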

How the data were processed

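The authors trimmed the reads of 10 polyA-selected, paired-end libraries, mapped them with STAR 2.5.2b to the C. elegans genome (named WBcel325 in the methods, taken as WBcel235) and used featureCounts of Subread 1.5.2 to count reads that mapped uniquely and fell in exons. The deposited values are raw counts per gene, without normalization. Gene symbols, positions and lengths came from the Ensembl WBcel235 annotation, which held 46581 of the 46756 genes.

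Strains were compared in R 4.3.3 with edgeR 4.0.16 (TMM, filterByExpr, quasi-likelihood F test, no covariate, Benjamini-Hochberg adjustment over 16817 genes, threshold 0.05, no fold cutoff), after the scripts were tested on simulated data. Standard errors are approximate: each is the fitted fold change over the root of its F value. Log2 CPM used a prior count of 2, and TPM the merged exon length. Alternatives were DESeq2 1.42.0, RLE size factors, no filter, at least 10 counts in every library, a replicate block, limma-voom (limma 3.58.1) with sample quality weights, and fits without each library or pair.

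The members and lists were chosen with earlier results of these data known. All members are named; values per library are given for the largest positive and negative fold change and the highest and lowest level in core and cap, for paralogs and for called pathway genes, and rpn-3, rpn-5, rpn-13 and rpt-1 were added after their values were seen, as was the limit of 1.25-fold. Pairs were defined by the replicate number, which was taken to stand for the day of rearing. Deviations of same-numbered libraries from their strain means correlated with r of 0.505, 0.283, 0.124, -0.0514 and 0.351 for replicates 1, 4, 5, 6 and 7. All 20 pairs of libraries within strains differed by more than counting noise. The count model treats the libraries as replicates. A planned search for SKN-1 motifs was not run, since no promoter sequences were used here.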

Additional observations from a re-analysis of the deposited data

Results flagged for a closer look

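Within strains, 84 groups of 5 values were checked for a library far from the others, and 6 subunit genes had one, where chance gives about 1 in 20 groups. pas-2 was at 50.1 CPM in pbrm-1(control) replicate 6, above the other control libraries, and rpn-5 was at 47 CPM in the same library. pas-7 was at 32.1 CPM and rpn-3 at 73.6 CPM in pbrm-1(TS-KO) replicate 7, both below the other libraries of the strain. rpn-1 was at 99.4 CPM in pbrm-1(control) replicate 4, below the rest, and rpn-2 at 130 CPM in pbrm-1(control) replicate 5, above the rest.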

How the results depend on the processing

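Of the 33 members, 26 kept the sign of their log2 fold change under all alternatives, and 29 of 693 values had the other sign. The number of members called was 0 with edgeR, with RLE size factors, without a filter, with at least 10 counts in every library and without each library or pair. With the replicate block in edgeR it was also 0, where rpn-6.2 had an adjusted p of 0.0592. This pairing changed no call of a member or of ubql-1, cdc-48.1, elb-1, skn-1, ddi-1, png-1 and zif-1. The cell type markers and pbrm-1 were not compared under the block. DESeq2 called 1 member (1 cap gene, rpn-6.2, log2 fold change 0.29) and limma-voom 4 (1 core gene and 3 cap genes, with log2 fold changes of 0.21 for pas-4, 0.14 for rpn-3, 0.15 for rpn-5 and 0.3 for rpn-6.2). Among all genes tested, 1955 were called with DESeq2, 2899 with limma-voom, 1826 with the replicate block and between 408 and 1204 without a library or pair, against 1299. Of the pathway list, 3 genes were called, 1 without the filter, 4 with DESeq2, 4 with the replicate block, 5 with limma-voom and 0 to 3 without a library or pair. limma-voom turned the sign of pbs-7 (-0.0058), rpt-1 (0.014) and ddi-1 (-0.0303). Without a library or pair, values ran from -0.018 to 0.077 for pas-2, -0.067 to 0.027 for pas-6, -0.044 to 0.022 for pbs-1, -0.0405 to 0.014 for pbs-5, -0.023 to 0.037 for pbs-7, -0.055 to 0.016 for rpt-1, -0.051 to 0.0303 for rpn-11 and -0.022 to 0.1014 for ddi-1. The cause of these shifts was not tested. The core median minus the cap median stayed below 0, between -0.042 and -0.023. rpn-6.2 had the fewest counts of the members.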
